A study of Mus musculus with 12 samples.

Results

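The 55 genes described here act in G2, the phase that precedes cell division, and in mitosis. They were taken as a list of gene symbols, chosen by their role in the cell cycle and not by a threshold on measured values. The list was drawn up with earlier results of these data known. All 55 were found among the 36292 gene symbols of the deposited count table, and all 55 were among the 15836 genes with enough counts to be tested. RNA was sequenced from 12 tumors of Hep3B, an established human hepatocellular carcinoma cell line, grown under the skin of female BALB/c nu/nu mice that were about 8 weeks old when the cells were injected. There were 4 groups of 3 mice: one received vehicle, one H3B-6527 (300 mg/kg), one lenvatinib (10 mg/kg) and one the combination of both drugs. H3B-6527 acts on FGFR4, a receptor for FGF19, with selectivity over the other FGF receptors, and lenvatinib is a multikinase inhibitor whose targets include the VEGF and FGF receptors. Dosing was oral and daily, it began at a mean tumor volume near 500 mm3, and tumors were removed 8 hours after dose 4. All tumors share 1 cell line, and nude mice lack mature T cells. The labels number no animals across groups, so tumors are named by group and replicate in the order of deposit and are not paired.

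A cell enters mitosis when CDK1, bound to cyclin B, is activated by CDC25 phosphatases and assisted by the kinases PLK1 and AURKA. The genes of this program are switched on together late in the cell cycle by the transcription factors FOXM1 and MYBL2, the latter as a partner of the MuvB complex. Their products condense the chromosomes, build the spindle, attach chromosomes to it, hold anaphase until all are attached, and then split the cell. Because the transcripts are made mainly in dividing cells, their summed level is widely used as a readout of proliferation, in liver tumors as elsewhere. In RNA from a whole tumor, fewer dividing cells and less of each transcript per dividing cell cannot be told apart, and this holds for every value below.

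Library totals ran from 23819193 to 40944798 counts, the smallest being H3B-6527 replicate 3. The member with the fewest counts, CENPA, still had 56 in its lowest library. Levels are given as CPM, the usual depth-scaled count, here relative to the TMM-adjusted library total, and compare tumors for 1 gene, not different genes, since transcript lengths were not used. All 10 liver cell and hepatocellular tumor markers were detected, with a summed level of 88264 to 97008 CPM in vehicle, 139778 to 202403 in H3B-6527, 94523 to 115074 in lenvatinib and 168225 to 189604 in combination tumors. Of the human symbols for host cell types, 7 of 7 endothelial markers in the table were under 1 CPM with ERG at 0, and their sum was 0.236 to 0.433 CPM in vehicle, 0.360 to 0.544 in H3B-6527, 0.274 to 0.487 in lenvatinib and 0.414 to 0.474 in combination tumors. All 4 T or B cell markers were under 1 CPM, with sums of 0.309 to 1.29 CPM over the 12 tumors. For fibroblasts 5 of 7 markers were under 1 CPM, and the sum, nearly all of it from PDGFRA, was 72.9 to 82.7 CPM in vehicle, 24.5 to 28.2 in H3B-6527, 60 to 72.7 in lenvatinib and 26.6 to 29.3 in combination tumors. For macrophages 5 of 8 were under 1 CPM with C1QA at 0, and the sums were 195 to 213, 149 to 204, 176 to 184 and 159 to 193 CPM in the same order. Nearly all of this came from CD68 and LYZ (means over the 12 tumors 127 and 50.6 CPM). For pericytes 2 of 4, RGS5 and ACTA2, were under 1 CPM, with sums of 49.5 to 59.0, 31.6 to 43.5, 49.4 to 57.4 and 37.6 to 43.3 CPM. Nearly all of this came from PDGFRB and CSPG4 (means 36.7 and 8.64 CPM). What these markers contribute to the results below was not tested.

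One tumor stood apart in these genes. In H3B-6527 replicate 3 the median of the 55 genes was 83.7% of the vehicle mean, against 40.7% in replicate 1 and 49.8% in replicate 2. Replicate 3 was the highest of its group for 53 of the 55 genes, and 17 genes were at 90% of the vehicle mean or above. It was below every vehicle tumor for 41 genes. The share of all genes with each of these patterns was not counted. DUSP6 encodes a phosphatase induced by ERK signaling and was chosen after its values were seen. Its level was 7.62 CPM in H3B-6527 replicate 3, beside 2.70 and 5.07 in the other H3B-6527 tumors. It was 71.1 to 92.9 CPM in vehicle tumors and 6.04, 9.70 and 15.8 in combination tumors. How DUSP6 relates to the 55 genes was not tested. H3B-6527 replicate 3 also had the smallest library, and the part of library size was not tested. The number of the 55 genes called lower with H3B-6527 is given with and without it. So is the value of each gene whose call it changed or whose value it moved by over 1.5 times. Counts by role, of tumors without overlap and of 2-fold falls all include it.

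**Figure D1:**
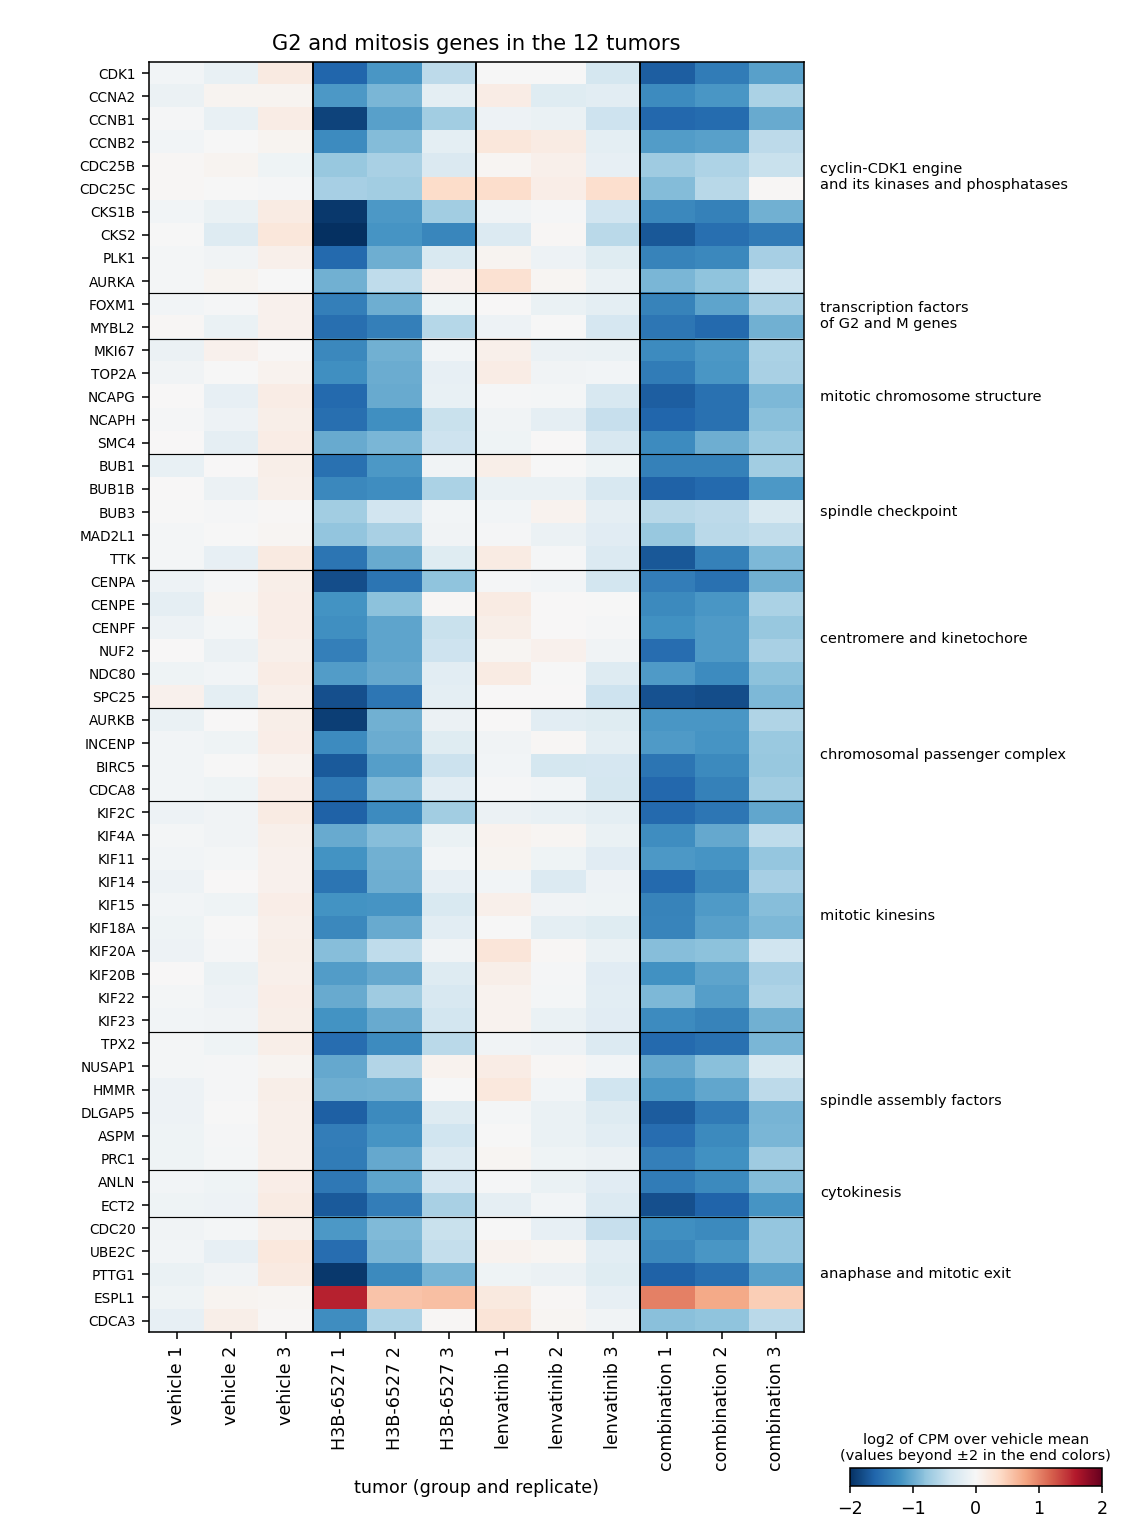
Each row is one of the 55 genes, grouped by role, and each column a tumor; the color is the log2 ratio of its CPM to the mean of the 3 vehicle tumors, from −2 (blue) to 2 (red), and values beyond that take the end color. H3B-6527 and combination tumors are blue for nearly all genes, H3B-6527 replicate 3 is the palest of them, and ESPL1 alone is red in all 6.

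Relative to the vehicle mean, the median log2 ratio of the 55 genes was −0.06, −0.04 and 0.11 in the 3 vehicle tumors. It was −1.30, −1.01 and −0.26 with H3B-6527, and −1.33, −1.18 and −0.75 with the combination. In the lenvatinib tumors it was 0.01, −0.05 and −0.22. The medians of all tested genes lay between −0.01 and 0.01 in every tumor. The genes together made up 0.507 to 0.579% of all counts in vehicle tumors, 0.466 to 0.533% with lenvatinib, 0.212, 0.245 and 0.420% with H3B-6527, and 0.203, 0.213 and 0.292% with the combination. Both groups that received H3B-6527 thus lay under the vehicle range in each tumor. In the combination group too, replicate 3 was the least reduced tumor, at 59.6% of the vehicle mean by the median, and it was the highest of its group for 54 genes. Lenvatinib replicate 3 was the lowest of its group for 50 genes, at 85.7% of vehicle. The share of all genes highest or lowest in these tumors was not counted.

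**Figure D2:**
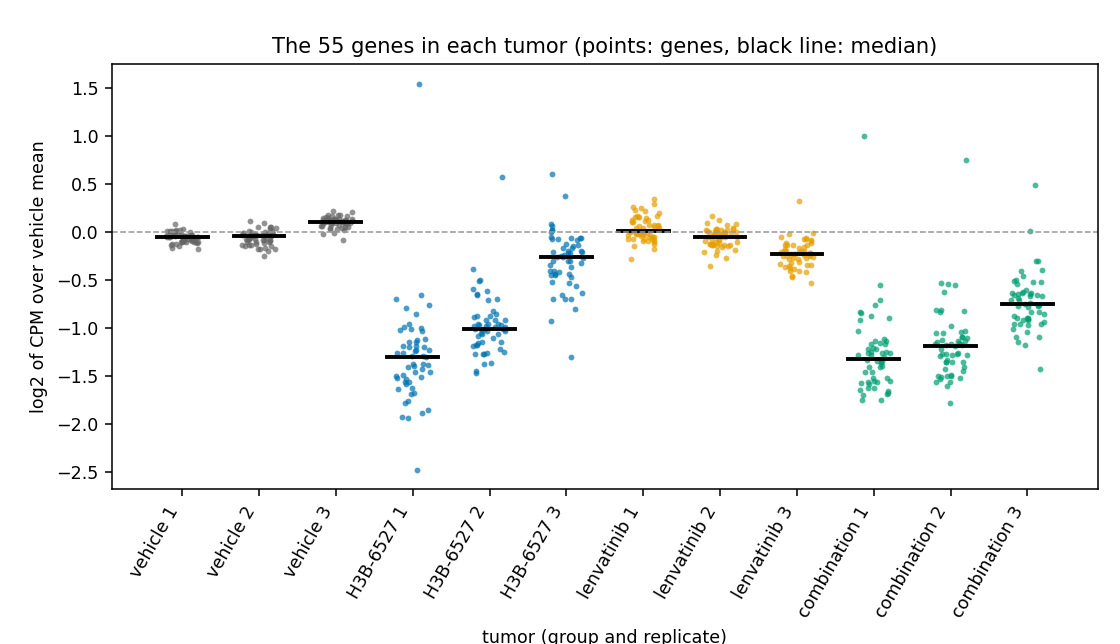
The vertical axis is the log2 ratio of CPM to the vehicle mean, each point is 1 of the 55 genes, each column is a tumor, and the black line is the median. The points of a tumor move as a block: the medians are −1.30, −1.01 and −0.26 with H3B-6527 and −1.33, −1.18 and −0.75 with the combination, and the point above each of these blocks is ESPL1.

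The spread between tumors of a group was wide where H3B-6527 was given. Expressed as SD over mean of the CPM, its median over the 55 genes was 7.77% with vehicle, 9.75% with lenvatinib, 21.2% with the combination and 38.4% with H3B-6527. Over all tested genes the same medians were 8.17%, 9.67%, 9.86% and 16%. With H3B-6527 it ran from 17.3% for CDC25B to 61.8% for SPC25.

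H3B-6527 lowered most of the program. Against vehicle, 46 of the 55 genes fell, 1 rose (ESPL1) and 8 did not pass the test, with a median log2 fold change of −0.79 beside 0.01 over all 15836 genes. Of all genes tested, 24.3% fell and 25.2% rose in this comparison. The 3 H3B-6527 tumors lay entirely below the 3 vehicle tumors for 41 of the 55 genes, and for 27.9% of all genes. A value of at least 2-fold lower was met by 12 of the 55 genes, all called, and by 8.22% of all genes. The largest falls were those of CKS2, PTTG1, CENPA, CKS1B and ECT2, from 1.17 to 1.55 on the log2 scale. The genes that did not pass were CDC25C, AURKA, MKI67, CENPE, KIF20A, NUSAP1, HMMR and CDCA3. Without H3B-6527 replicate 3, all 54 genes other than ESPL1 fell (median −1.16), and 26.2% of all genes did. Without replicate 1 or without replicate 2 the number was 29 in each case (medians −0.59 and −0.69), and 21.0% and 22.3% of all genes fell. In 11 alternative analyses 28 of the 46 falls held throughout, and no gene of the 55 changed direction. A fit without the low-count filter lost 16 of these calls, and a fit of the 2 groups alone lost 12. Most losses listed by gene below are those with 1 tumor left out.

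The combination lowered nearly all of them. Against vehicle, 53 genes fell, ESPL1 rose, and CDC25C alone did not pass, with a median of −1.06 beside 0.01 over all genes. Of all genes tested, 25.3% fell and 24.8% rose. All 3 combination tumors lay below all 3 vehicle tumors for 53 of the 55 genes, against 32.8% of all genes. A value of at least 2-fold lower was met by 35 of the 55 genes, all called, and by 8.07% of all genes. CKS2, ECT2, BUB1B, SPC25 and PTTG1 had the largest falls, from 1.39 to 1.54. The falls of 47 genes held in all 11 alternatives. Those of AURKA, AURKB and NUSAP1 were among the calls lost without the low-count filter. Both comparisons use the same 3 vehicle tumors, so they are not independent of each other. Vehicle replicate 3 was the highest vehicle tumor for 49 genes. Without it, 31 genes fell with H3B-6527, as did 19.3% of all genes, and 50 fell with the combination, as did 20.4% of all genes.

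**Figure D3:**
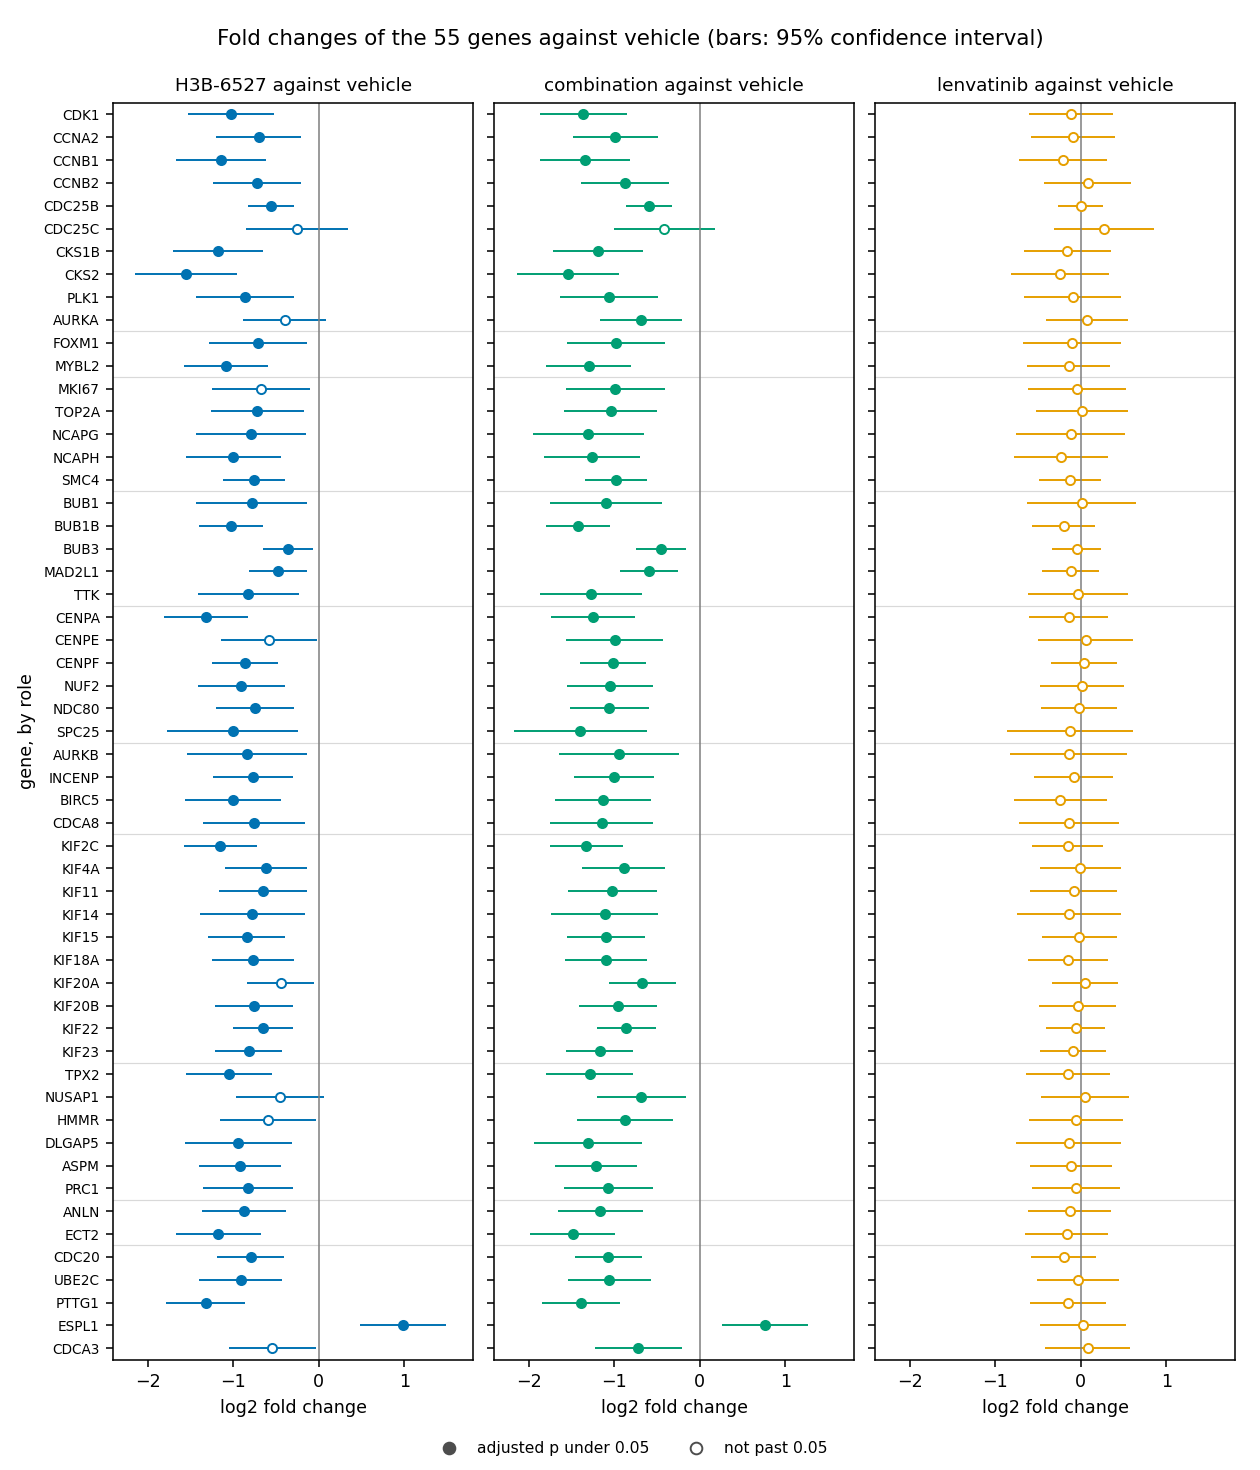
Log2 fold change of each gene against vehicle (horizontal axis, bars are 95% confidence intervals, n = 3 tumors per group) for H3B-6527, the combination and lenvatinib; filled points have an adjusted p under 0.05. Of the 55 genes, 46, 53 and 0 are filled below zero in the 3 panels, and ESPL1 is the only filled point above zero.

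Among the engine of mitotic entry, 8 of 10 genes fell with H3B-6527 (median −0.79) and 9 with the combination (median −1.02). CDK1, the kinase that drives entry into mitosis, was at 40.4, 38.0 and 47.6 CPM in the 3 vehicle tumors, 14.0, 18.9 and 29.3 with H3B-6527 and 13.4, 15.9 and 19.7 with the combination. It fell by 1.03 ± 0.23 (log2 scale, SE, adjusted p = 0.00304) and by 1.36 ± 0.23 (adjusted p = 0.000517). Neither group's tumors overlapped vehicle. CCNB1, its cyclin B1 partner, was at 81.9, 75.1 and 91.4 CPM with vehicle, 22.9, 39.1 and 51.0 with H3B-6527 and 27.9, 28.6 and 41.3 with the combination, and fell by 1.14 ± 0.24 (adjusted p = 0.00220) and 1.34 ± 0.24 (adjusted p = 0.000772). Again the groups did not overlap, and replicate 3 was the highest of both treated groups. CCNA2, cyclin A2, which acts from S phase into early mitosis, was at 40.7, 45.8 and 46.0 CPM with vehicle, 20.0, 23.4 and 38.6 with H3B-6527 and 18.6, 19.8 and 28.5 with the combination. Its falls were 0.70 ± 0.23 (adjusted p = 0.0234) and 0.99 ± 0.23 (adjusted p = 0.00378). CCNB2, cyclin B2, fell by 0.72 ± 0.24 and 0.88 ± 0.24. With H3B-6527 the CCNA2 call was lost without vehicle replicate 2 or 3 or H3B-6527 replicate 1 or 2 (−0.68 to −0.52, adjusted p 0.0538 to 0.0916). The CCNB2 call was lost without vehicle replicate 3 or H3B-6527 replicate 1 or 2 (−0.69 to −0.51, adjusted p 0.0611 to 0.0848).

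CKS1B and CKS2 encode the small subunits that bind CDK1. CKS2 was at 50.1, 42.4 and 58.8 CPM with vehicle, 9.05, 22.3 and 20.4 with H3B-6527 and 15.5, 17.8 and 18.8 with the combination. This was the largest fall of the 55 genes in both comparisons, 1.55 ± 0.27 (adjusted p = 0.000666) and 1.54 ± 0.27 (adjusted p = 0.000694). CKS2 was also the lowest of the 55 genes in H3B-6527 replicate 3, at 40.5% of the vehicle mean. CKS1B was at 46.8, 44.4 and 54.7 CPM with vehicle, 12.7, 22 and 30.0 with H3B-6527 and 20.0, 19.1 and 25 with the combination, and fell by 1.18 ± 0.24 (adjusted p = 0.00178) and 1.18 ± 0.24 (adjusted p = 0.00167). For CKS2 the mean was 17.4 ± 1.69 CPM with the combination and 17.3 ± 7.16 with H3B-6527 alone (SD, n = 3), and the 95% confidence interval of the log2 difference was −0.58 to 0.62.

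Among the kinases and phosphatases around CDK1 the calls were mixed. PLK1, which promotes entry and later mitotic steps, was at 92.1, 90.9 and 102 CPM with vehicle, 32.2, 48.1 and 77.2 with H3B-6527 and 37.6, 38.7 and 60 with the combination. It fell by 0.86 ± 0.26 with H3B-6527 (adjusted p = 0.0176; −0.80 to −0.60 and 0.0552 to 0.0558, not passing, when H3B-6527 replicate 1 or 2 was left out) and by 1.06 ± 0.26 with the combination (adjusted p = 0.00565). AURKA, the centrosome kinase that activates PLK1, was at 119.8, 128 and 123 CPM with vehicle and 63.8, 86.9 and 131 with H3B-6527, where replicate 3 exceeded the vehicle tumors. The value of −0.40 ± 0.22 did not pass (adjusted p = 0.152), and without replicate 3 it was −0.72 (adjusted p = 0.00393). With the combination AURKA was at 65.6, 70.6 and 94.0 CPM and fell by 0.69 ± 0.22 (adjusted p = 0.0219), which no longer passed without vehicle replicate 2 or combination replicate 1 or 2 (−0.66 to −0.59, adjusted p 0.0510 to 0.0816). The 2 CDC25 phosphatases, which remove inhibitory phosphates from CDK1, differed in their calls. CDC25B was at 18.5, 18.9 and 17.2 CPM with vehicle, 10.8, 11.6 and 14.8 with H3B-6527 and 11.1, 11.8 and 13.3 with the combination, without overlap, and fell by 0.56 ± 0.12 (adjusted p = 0.00250) and 0.59 ± 0.12 (adjusted p = 0.00171). CDC25C was at 11.9, 11.7 and 11.5 CPM with vehicle, 7.41, 7.23 and 15.2 with H3B-6527 and 6.39, 7.98 and 11.8 with the combination. Its tumors overlapped vehicle in both groups, and neither −0.25 ± 0.27 (adjusted p = 0.464) nor −0.42 ± 0.27 (adjusted p = 0.226) passed. Without H3B-6527 replicate 3 the former was −0.68 (adjusted p = 0.0110). The difference between the 2 phosphatases itself was not tested.

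Both transcription factors of the program fell in both comparisons. MYBL2 was at 98.8, 88.6 and 103 CPM with vehicle, 34.2, 37.6 and 65.5 with H3B-6527 and 35.4, 32.9 and 49.6 with the combination, and fell by 1.09 ± 0.22 (adjusted p = 0.00194) and 1.30 ± 0.23 (adjusted p = 0.000600). Its treated tumors all lay below vehicle, and the call held in all alternatives. FOXM1 was at 76.2, 77.6 and 83.6 CPM with vehicle, 30.7, 40.4 and 74.6 with H3B-6527 and 31.5, 38.2 and 50.6 with the combination, with falls of 0.71 ± 0.26 (adjusted p = 0.0411) and 0.98 ± 0.26 (adjusted p = 0.00889). In H3B-6527 replicate 3 FOXM1 was just under the lowest vehicle tumor. Its call with H3B-6527 was lost without vehicle replicate 1, 2 or 3 or H3B-6527 replicate 1 or 2 (−0.74 to −0.47, adjusted p 0.0688 to 0.146), and without H3B-6527 replicate 3 the value was −1.16.

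Of the 5 genes of chromosome structure, 4 fell with H3B-6527 and all 5 with the combination. MKI67 encodes Ki-67, the coat protein of mitotic chromosomes used to count proliferating cells in tumor sections. It was at 506, 587 and 557 CPM with vehicle, 226, 283 and 529 with H3B-6527 and 230.3, 249 and 353 with the combination. H3B-6527 replicate 3 lay within the vehicle range, the other treated tumors below it. The H3B-6527 value of −0.67 ± 0.26 narrowly missed the threshold (adjusted p = 0.0511), which DESeq2, limma voom and library totals passed (adjusted p 0.0152 to 0.0361), and it was −1.12 without replicate 3 (adjusted p = 0.000150). With the combination MKI67 fell by 0.99 ± 0.26 (adjusted p = 0.00844). TOP2A, the topoisomerase that untangles sister chromatids, was at 391, 408 and 431 CPM with vehicle, 175, 206 and 366 with H3B-6527 and 155, 182 and 261 with the combination. It fell by 0.72 ± 0.25 (adjusted p = 0.0306) and 1.04 ± 0.25 (adjusted p = 0.00459). The H3B-6527 tumors were below vehicle. The condensin subunits NCAPG, NCAPH and SMC4, which compact chromosomes, fell by 0.79, 1.0 and 0.75 with H3B-6527 and by 1.30, 1.26 and 0.98 with the combination. NCAPG was at 90.5, 79.7 and 99.0 CPM with vehicle, 30.5, 44.6 and 81.3 with H3B-6527, overlapping vehicle, and 28.7, 32.0 and 48.2 with the combination. The H3B-6527 calls of TOP2A and NCAPG were lost without any 1 of the 3 vehicle tumors or without H3B-6527 replicate 1 or 2 (TOP2A −0.75 to −0.52, adjusted p 0.0544 to 0.120; NCAPG −0.87 to −0.52, adjusted p 0.0503 to 0.151). Without H3B-6527 replicate 3 their values were −1.11 and −1.26.

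All 5 genes of the spindle checkpoint, which delays anaphase while a chromosome is unattached, fell in both comparisons, with medians of −0.78 and −1.10. BUB1B encodes BUBR1, a part of the complex that inhibits anaphase onset. It was at 199, 181 and 213 CPM with vehicle, 80.5, 83.2 and 128 with H3B-6527 and 64.2, 67.0 and 89.3 with the combination. Its falls of 1.03 ± 0.17 (adjusted p = 0.000398) and 1.43 ± 0.17 (adjusted p = 3.88e-05) came with no overlap. BUB3, its partner, had the smallest fall of any member that passed, from 56.1, 55.1 and 57.3 CPM to 34.6, 42.9 and 53.9 with H3B-6527 (−0.36 ± 0.13, adjusted p = 0.0383) and 38.3, 38.9 and 45.6 with the combination (−0.46 ± 0.13, adjusted p = 0.0125). MAD2L1, which encodes the checkpoint protein MAD2, was at 14.4, 14.6 and 15.2 CPM with vehicle, 8.51, 9.43 and 14.1 with H3B-6527 and 8.69, 10.1 and 10.4 with the combination, and fell by 0.48 and 0.60. In both genes H3B-6527 replicate 3 was only just under the lowest vehicle tumor. TTK, the kinase that starts checkpoint signaling, was at 53.9, 49.4 and 62.6 CPM with vehicle, 20.2, 27.5 and 46.6 with H3B-6527 and 17.1, 21.7 and 29.8 with the combination, and fell by 0.82 ± 0.27 (adjusted p = 0.0249) and 1.27 ± 0.27 (adjusted p = 0.00242). BUB1, a kinase at the kinetochore, fell by 0.78 ± 0.30 (adjusted p = 0.0457) and 1.10 ± 0.30 (adjusted p = 0.00927). Its H3B-6527 tumors overlapped vehicle, with replicate 3 at 42.7 CPM and the lowest vehicle tumor at 40.7. With H3B-6527 the calls of BUB1 and BUB3 were lost without any 1 vehicle tumor or without H3B-6527 replicate 1 or 2 (BUB1 −0.85 to −0.52, adjusted p 0.0651 to 0.172; BUB3 −0.38 to −0.22, adjusted p 0.0682 to 0.132). Those of MAD2L1 and TTK were lost without vehicle replicate 3 or H3B-6527 replicate 1 or 2 (adjusted p 0.0658 to 0.0866 and 0.0774 to 0.0956), and that of BUB3 with the combination without combination replicate 1 or 2 (adjusted p 0.0502 to 0.0518). Without H3B-6527 replicate 3 the value of BUB1 was −1.31 and that of MAD2L1 −0.72.

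At the centromere and kinetochore, where chromosomes bind the spindle, 5 of 6 genes fell with H3B-6527 and 6 with the combination. CENPA, the histone H3 variant that marks centromeres, was at 5.11, 5.37 and 5.91 CPM with vehicle, 1.59, 1.98 and 3.14 with H3B-6527 and 2.09, 1.93 and 2.82 with the combination. It fell by 1.32 ± 0.23 (adjusted p = 0.000443) and 1.25 ± 0.23 (adjusted p = 0.000580), and all treated tumors lay below all vehicle tumors. CENPF, NUF2 and NDC80, the latter pair being arms of the complex that grips microtubules, fell by 0.86, 0.90 and 0.74 with H3B-6527 and by 1.02, 1.05 and 1.06 with the combination. SPC25, of the same complex, had the largest SD relative to its mean of the 55 genes in both the H3B-6527 and the combination group, and was at 7.29, 6.01 and 7.35 CPM with vehicle, 2.03, 2.52 and 6.03 with H3B-6527 and 2.05, 2.0 and 3.68 with the combination. H3B-6527 replicate 3 lay within the vehicle range. SPC25 fell by 1.0 ± 0.35 (adjusted p = 0.0324), which no longer passed without vehicle replicate 1 or 3 or H3B-6527 replicate 1 or 2 (−0.96 to −0.72, adjusted p 0.080 to 0.116), and by 1.40 ± 0.36 with the combination (adjusted p = 0.00632). The H3B-6527 value of SPC25 was −1.60 without replicate 3. CENPE, a kinetochore motor, was at 50.7, 58.7 and 62.6 CPM with vehicle and 25, 32.5 and 58.2 with H3B-6527, overlapping, and its value of −0.58 ± 0.26 did not pass (adjusted p = 0.0816; −1.0 and 0.000576 without replicate 3). The H3B-6527 value of CENPE passed by DESeq2 and limma voom with all tumors kept (adjusted p 0.0326 to 0.0415). With the combination CENPE was at 23.6, 25.6 and 37.0 CPM and fell by 0.99 ± 0.26 (adjusted p = 0.00753).

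The chromosomal passenger complex corrects faulty attachments and directs cytokinesis, and its 4 genes fell in both comparisons. AURKB, its kinase, was at 22.7, 25 and 26.9 CPM with vehicle, 6.74, 12.8 and 22.8 with H3B-6527 and 11.1, 11.1 and 16.4 with the combination. The third H3B-6527 tumor overlapped vehicle, and the falls were 0.84 ± 0.32 (adjusted p = 0.0480) and 0.94 ± 0.32 (adjusted p = 0.0284). BIRC5, which encodes survivin, was at 16.3, 16.9 and 17.8 CPM with vehicle, 5.30, 7.94 and 12.6 with H3B-6527 and 6.20, 7.01 and 10.1 with the combination, without overlap, and fell by 1.0 ± 0.26 (adjusted p = 0.00695) and 1.13 ± 0.26 (adjusted p = 0.00334). The scaffold INCENP fell by 0.76 and 1.0, and CDCA8, which encodes borealin, by 0.76 and 1.15. The H3B-6527 calls of AURKB and CDCA8 were lost without any 1 vehicle tumor or without H3B-6527 replicate 1 or 2 (AURKB −0.90 to −0.50, adjusted p 0.0708 to 0.119; CDCA8 −0.80 to −0.51, adjusted p 0.0534 to 0.132). The AURKB value was −1.35 without H3B-6527 replicate 3. With the combination the AURKB call was lost without vehicle replicate 2 or 3 or combination replicate 1 or 2 (−0.94 to −0.85, adjusted p 0.0538 to 0.0903).

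Of the 10 mitotic kinesins, motors that move along or trim spindle microtubules, 9 fell with H3B-6527 (median −0.76) and 10 with the combination (median −1.06). KIF2C, which removes tubulin at the centromere, had the largest falls of them, 1.15 ± 0.20 (adjusted p = 0.000502) and 1.32 ± 0.20 (adjusted p = 0.000190), from a mean of 57.0 CPM to 25.8 and 22.7. KIF11, the motor that pushes the spindle poles apart, fell by 0.65 and 1.02. Its H3B-6527 tumors overlapped vehicle, with replicate 3 at 48.9 CPM and the lowest vehicle tumor at 48.8. KIF23, a motor of the central spindle, fell by 0.82 and 1.17. KIF20A, a motor of the cleavage furrow, was at 38.1, 39.9 and 44.3 CPM with vehicle, 22.6, 28.8 and 38.7 with H3B-6527 and 22.7, 23.1 and 30.8 with the combination. With H3B-6527 the tumors overlapped vehicle, and −0.44 ± 0.18 did not pass (adjusted p = 0.0564; −0.67 and 0.00308 without replicate 3), while with the combination KIF20A fell by 0.67 ± 0.18 (adjusted p = 0.00806). The H3B-6527 value of KIF20A passed by DESeq2, limma voom and library totals with all tumors kept (adjusted p 0.0264 to 0.0353). The remaining 6, KIF4A, KIF14, KIF15, KIF18A, KIF20B and KIF22, fell by 0.62 to 0.84 with H3B-6527 and by 0.86 to 1.11 with the combination. The H3B-6527 calls of KIF4A, KIF11 and KIF14 were lost without any 1 vehicle tumor or without H3B-6527 replicate 1 or 2 (adjusted p 0.0535 to 0.140, 0.0611 to 0.134 and 0.0621 to 0.141), and without H3B-6527 replicate 3 their values were −0.94, −1.07 and −1.20. KIF4A has a near-identical copy, KIF4B, with 85 counts over the 12 libraries against 33466 for KIF4A, so the split of reads between them is uncertain.

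Of 6 spindle assembly factors, 4 fell with H3B-6527 and 6 with the combination. TPX2, which nucleates microtubules and activates AURKA, was at 146, 141 and 162 CPM with vehicle, 51.9, 62.4 and 104 with H3B-6527 and 51.1, 53.1 and 79.7 with the combination. It fell by 1.05 ± 0.23 (adjusted p = 0.00278) and 1.29 ± 0.23 (adjusted p = 0.000749), and no treated tumor reached the vehicle range. ASPM, a spindle pole protein, fell by 0.93 and 1.22, PRC1, which bundles the central spindle, by 0.83 and 1.07, and DLGAP5, which stabilizes spindle microtubules, by 0.94 and 1.31. The DLGAP5 call with H3B-6527 was lost without H3B-6527 replicate 1 or 2 (adjusted p 0.0645 to 0.0650; its value was −1.44 without replicate 3), and that of PRC1 without the low-count filter (adjusted p 0.0507). NUSAP1 and HMMR were the exceptions. NUSAP1 was at 70.0, 70.4 and 74.3 CPM with vehicle, 35.2, 47.6 and 74.9 with H3B-6527 and 35.1, 40.3 and 58.2 with the combination. The H3B-6527 value of −0.45 ± 0.24 did not pass (adjusted p = 0.134; −0.79 and 0.00338 without replicate 3), and the combination value was a fall of 0.68 ± 0.24 (adjusted p = 0.0309). HMMR was at 11, 11.6 and 12.9 CPM with vehicle, 5.99, 6.07 and 11.8 with H3B-6527 and 5.28, 5.77 and 8.25 with the combination, with −0.59 ± 0.26 (adjusted p = 0.0744; −0.97 and 0.00136 without replicate 3) and a fall of 0.87 ± 0.26 (adjusted p = 0.0142). In both genes H3B-6527 replicate 3 lay among or above the vehicle tumors. The H3B-6527 value of HMMR passed by DESeq2, limma voom and library totals with all tumors kept (adjusted p 0.0247 to 0.0491). The combination calls were lost without combination replicate 1 or 2 for HMMR (adjusted p 0.0546 to 0.0617), and for NUSAP1 without either of these or any 1 vehicle tumor (adjusted p 0.0543 to 0.114).

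The 2 cytokinesis genes fell in both comparisons. ECT2, which activates RhoA at the site of division, was at 130.0, 128 and 155 CPM with vehicle, 43.1, 53.0 and 87.8 with H3B-6527 and 40.9, 45.5 and 61.0 with the combination. It fell by 1.17 ± 0.23 (adjusted p = 0.00123) and 1.49 ± 0.23 (adjusted p = 0.000254), so that every treated tumor was below every vehicle tumor. ANLN, the scaffold of the contractile ring, fell by 0.87 ± 0.23 (adjusted p = 0.00742) and 1.16 ± 0.23 (adjusted p = 0.00130).

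The genes of anaphase and mitotic exit held the only member that rose. CDC20, which activates the anaphase-promoting complex, was at 51.5, 52.6 and 57.8 CPM with vehicle, 24.5, 29.4 and 39.6 with H3B-6527 and 23.1, 22.3 and 31.6 with the combination, and fell by 0.80 ± 0.18 (adjusted p = 0.00286) and 1.07 ± 0.18 (adjusted p = 0.000412). UBE2C, the ubiquitin-conjugating enzyme of that complex, was at 45.6, 42.3 and 55 CPM with vehicle, 16.7, 25.2 and 34.4 with H3B-6527 and 19.4, 21.3 and 28.0 with the combination, with falls of 0.91 ± 0.22 (adjusted p = 0.00522) and 1.06 ± 0.22 (adjusted p = 0.00212). PTTG1 encodes securin, the inhibitor of separase that the complex destroys at anaphase. It was at 49.4, 51.5 and 61.0 CPM with vehicle, 14.2, 22.4 and 28.4 with H3B-6527 and 17.5, 18.9 and 25.3 with the combination, and fell by 1.32 ± 0.21 (adjusted p = 0.000311) and 1.39 ± 0.21 (adjusted p = 0.000221). For all 3 genes the treated tumors were below the vehicle tumors. PTTG2, a copy of PTTG1, had 14 counts over the 12 libraries against 15470 for PTTG1. CDCA3, which helps degrade the CDK1 inhibitor WEE1, was at 7.17, 8.71 and 8.19 CPM with vehicle, 3.39, 5.26 and 8.12 with H3B-6527 and 4.52, 4.59 and 5.51 with the combination. Its H3B-6527 value of −0.54 ± 0.24 did not pass (adjusted p = 0.0726; −0.90 and 0.00144 without replicate 3). By limma voom and library totals it passed with all tumors kept (adjusted p 0.0232 to 0.0401). With the combination CDCA3 fell by 0.72 ± 0.24 (adjusted p = 0.0230). That call was lost without vehicle replicate 2 or 3 or combination replicate 1 or 2 (adjusted p 0.0599 to 0.0759).

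ESPL1 encodes separase, the protease that cuts cohesin to part sister chromatids and that securin holds inactive. Its level was 60.3, 66.5 and 66.1 CPM with vehicle, 188, 95.9 and 97.9 with H3B-6527, 74.0, 65.0 and 57.4 with lenvatinib and 129, 108 and 90.6 with the combination. All 6 tumors that received H3B-6527 were above all vehicle and lenvatinib tumors, and H3B-6527 replicate 1, the lowest of its group for 53 members, was the highest for ESPL1. ESPL1 rose by 0.98 ± 0.23 with H3B-6527 (adjusted p = 0.00406, 95% confidence interval 0.48 to 1.49) and by 0.77 ± 0.23 with the combination (adjusted p = 0.0155, interval 0.26 to 1.27). The first call held in all 11 alternatives, with values from 0.59, without H3B-6527 replicate 1, to 1.15, without replicate 2. The second was lost without vehicle replicate 1 or combination replicate 1 (0.63 to 0.72, adjusted p 0.0506 to 0.0622), and without the low-count filter (adjusted p = 0.0651). PTTG1 and ESPL1, inhibitor and protease, thus moved in opposite directions in the same tumors.

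**Figure D4:**
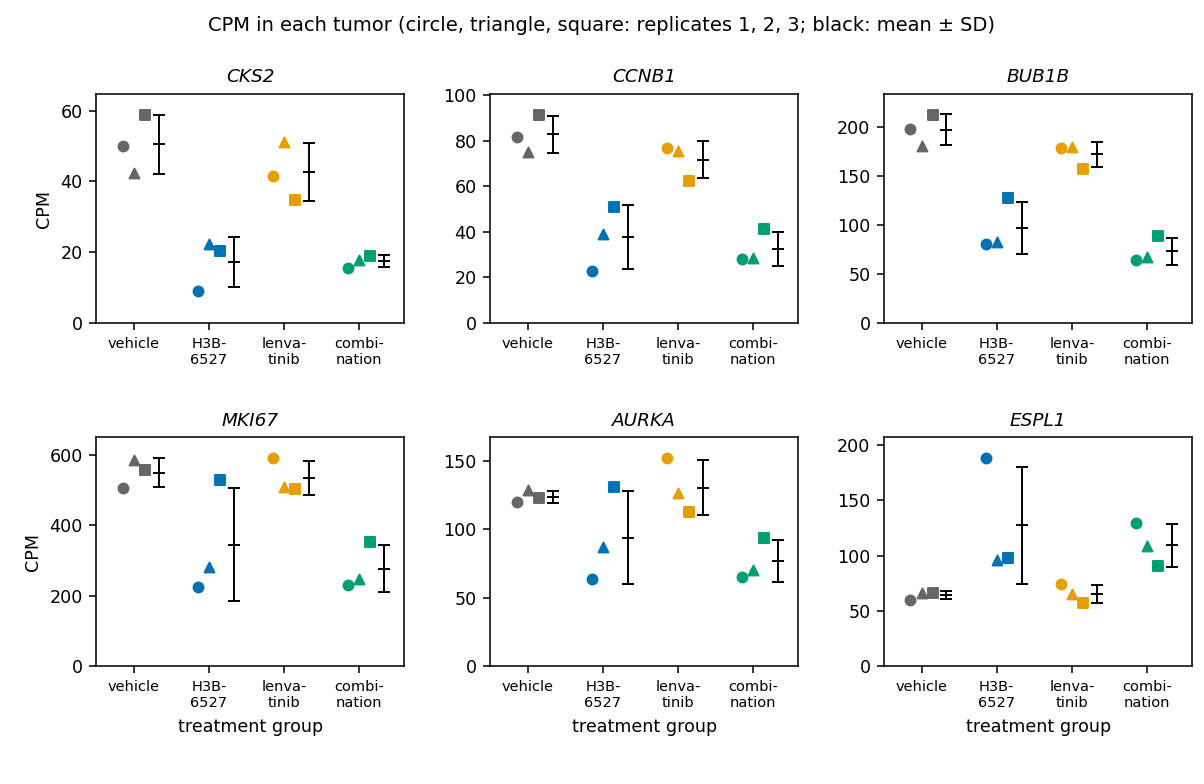
CPM (vertical axis, starting at 0) of 6 genes in each tumor by treatment group; circles, triangles and squares are replicates 1, 2 and 3, and the black bar is mean ± SD (n = 3). For CKS2, CCNB1 and BUB1B the 6 tumors given H3B-6527, alone or in combination, lie below all vehicle tumors, for MKI67 and AURKA H3B-6527 replicate 3 (529 and 131 CPM) does not, and ESPL1 is higher in all 6 tumors given H3B-6527.

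No member passed the test with lenvatinib alone. Against vehicle, 0 of 55 passed the test in either direction, 0 had an unadjusted p under 0.05 by edgeR, and 0% of all genes were called, while 1699 genes (10.7%) had an unadjusted p under 0.05. DESeq2 and limma voom also called 0 members, while DESeq2 called 0.818% of its 14300 genes lower, limma voom 4 genes, and an edgeR fit of the 2 groups alone 0.577% of genes and 0 members. The median log2 fold change was −0.09 beside 0.01 over all genes, with 43 values below zero and 12 above. Over all genes 48.5% of values were below zero. The number below zero was 32 without lenvatinib replicate 3 (median −0.02) and 34 without vehicle replicate 3 (median −0.04). It was 53 without lenvatinib replicate 1 (median −0.16). In the main fit the values ran from −0.25 for CKS2 (95% confidence interval −0.82 to 0.33) to 0.27 for CDC25C (−0.31 to 0.85). MKI67 was at 591, 509.9 and 503 CPM in the lenvatinib tumors, beside 506, 587 and 557 with vehicle, and its interval was −0.61 to 0.53. CDK1 was at 41.9, 41.6 and 32.8 CPM and CCNB1 at 76.9, 75.7 and 62.3 CPM, both overlapping vehicle, with intervals of −0.61 to 0.37 and −0.72 to 0.31. BUB1B, at 179, 180.2 and 158 CPM, and KIF2C, at 52.3, 51.5 and 49.8 CPM, were below all 3 vehicle tumors. These were the 2 members for which all lenvatinib tumors lay below all vehicle tumors, a pattern met by 10.9% of all genes. In the other direction CDC25C, at 14.9, 12.8 and 14.7 CPM, lay above all vehicle tumors (11.9, 11.7 and 11.5 CPM). Its edgeR test did not pass (adjusted p = 0.784), and the share of all genes with this upward pattern was not counted.

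Adding lenvatinib to H3B-6527 gave lower values for most members, but none passed the test. In combination against H3B-6527 tumors, 53 of 55 values were negative, as were 52.5% over all genes. The median was −0.24 beside −0.01 over all genes. By edgeR 0 members and 0% of all genes were called lower (2 genes of the series were called higher). One member, BUB1B, had an unadjusted p under 0.05, as had 1492 genes in all (9.42%). DESeq2 and limma voom called 0 members. Over all genes DESeq2 called 0.116% of 14607 lower and limma voom 0%. The values ran from −0.51 ± 0.30 for NCAPG (95% confidence interval −1.16 to 0.13) to 0.06 ± 0.24 for CENPA (−0.45 to 0.58). TTK (−0.45 ± 0.27), CENPE (−0.41 ± 0.26), BUB1B (−0.40 ± 0.17, interval −0.77 to −0.03, adjusted p = 0.487) and SPC25 (−0.39 ± 0.37) followed NCAPG, and PTTG1 (−0.07 ± 0.21), CDC25B (−0.03 ± 0.13), CKS1B (interval −0.53 to 0.53) and CKS2 (0.02 ± 0.27) preceded CENPA. For no member were the combination tumors all below the H3B-6527 tumors, which held for 7.15% of all genes. The direction rests on H3B-6527 replicate 3: without it the median was 0.11 and 9 of 55 values were negative. Without the least reduced combination tumor, replicate 3, the median was −0.45.

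**Figure D5:**
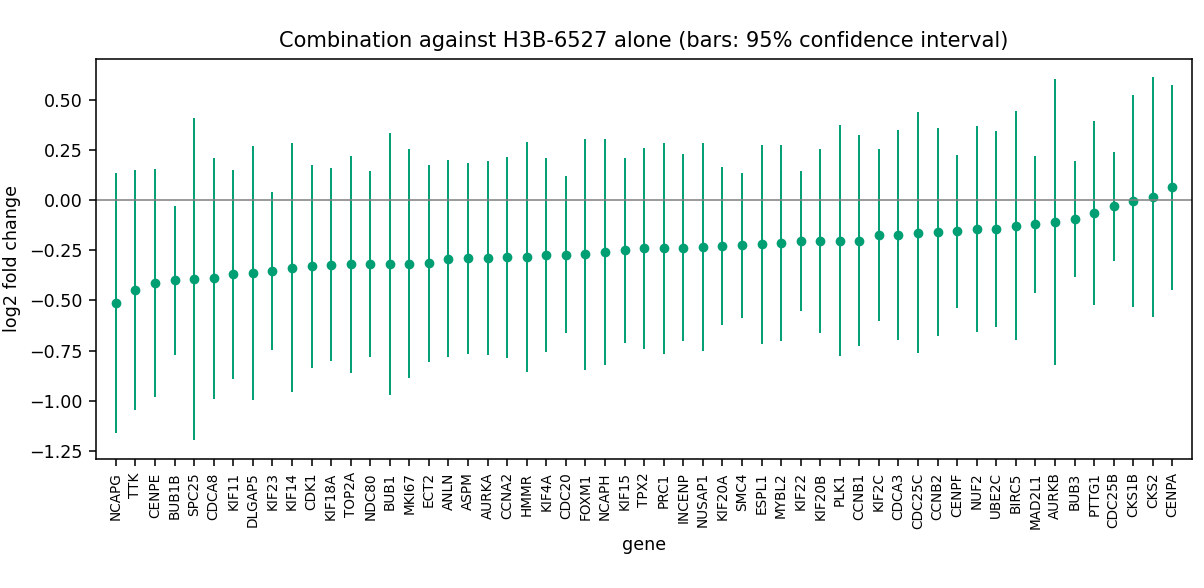
Log2 fold change (vertical axis) of each of the 55 genes in combination against H3B-6527 tumors, ordered by value, with 95% confidence intervals (n = 3 tumors per group). The points run from −0.51 for NCAPG to 0.06 for CENPA, and all intervals but that of BUB1B include zero.

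The groups given H3B-6527 were also compared with lenvatinib alone. In the combination 52 of 55 genes were lower than with lenvatinib alone and ESPL1 was higher, with a median of −1.02; over all genes 20.9% were lower and 19.1% higher. All 3 combination tumors lay below all lenvatinib tumors for 54 genes, against 29.7% of all genes. AURKB (−0.80 ± 0.32, adjusted p = 0.0655) and CDC25C (−0.69 ± 0.27, adjusted p = 0.0617) did not pass. The number lower was 39, 40 and 54 without combination replicate 1, 2 or 3 (14.8%, 14.5% and 18.5% of all genes). Leaving out lenvatinib replicate 1, 2 or 3 gave 44, 48 and 52 (17.25%, 15.1% and 16.6% of all genes). With H3B-6527 alone 38 genes were lower than with lenvatinib and ESPL1 was higher (median −0.73); over all genes 20.6% were lower and 20.5% higher. Without H3B-6527 replicate 3 the number was 54, and 23.2% of all genes were lower. Without H3B-6527 replicate 1 or 2 it was 20 in each case, with 16.6% and 18.3% of all genes lower. Without lenvatinib replicate 1, 2 or 3 it was 20, 24 and 30, with 17.0%, 15.0% and 16.8% of all genes lower. These comparisons share treated tumors with those against vehicle.

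A test of whether the combination differs from the sum of the 2 single-agent log2 effects called 0 of the 55 genes and 0% of all genes by edgeR. No member had an unadjusted p under 0.05, compared with 854 genes in all (5.39%). DESeq2 and limma voom called 0 members. Over all genes DESeq2 called 0.0322% of 15528 below zero and limma voom 0%. The median of this contrast was −0.19 beside −0.02 over all genes, and without H3B-6527 replicate 3 it was 0.16. Of the 55 values 48 were below zero, as were 53.7% over all genes, and without H3B-6527 replicate 3 the number was 6. The widest 95% interval among the members spanned 2.18 log2 units.

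Other genes of the pathway, listed by function, gave calls in both directions, to be read against the shares over all genes of 24.3% lower and 25.2% higher with H3B-6527 and 25.3% lower and 24.8% higher with the combination. Among 17 genes of the anaphase-promoting complex, its activators and inhibitors, 6 fell and 2 rose with H3B-6527 (35.3% and 11.8%, median −0.09), and 5 fell and 2 rose with the combination (29.4% and 11.8%, median −0.11). With the combination the share that fell was thus near that over all genes. UBE2S, which extends ubiquitin chains for the complex, fell by 1.22 ± 0.21 with the combination (adjusted p = 0.000497), FBXO5, an inhibitor of the complex, by 1.23 ± 0.22 (adjusted p = 0.000659), and the subunits ANAPC7 and ANAPC1 by 0.78 and 0.45. FZR1, which encodes the activator CDH1 of late mitosis and G1 and was chosen after its values were seen, rose by 0.37 ± 0.08 (adjusted p = 0.00246). Of 16 genes of the MuvB, DREAM and pocket protein group, which represses the program in resting cells and activates it with MYBL2, 6 fell and 3 rose with H3B-6527 (37.5% and 18.8%, median −0.08), and 7 fell and 2 rose with the combination (43.8% and 12.5%, median −0.14). E2F5, a repressive E2F, fell by 1.38 ± 0.13 (adjusted p = 5.31e-06), the MuvB subunit LIN9 by 1.15 and E2F4 by 0.51, while NFYC, a subunit of the CCAAT-binding factor, rose by 0.32 (adjusted p = 0.00214).

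Of 14 further switches of mitotic entry, 9 fell with H3B-6527 (median −0.53), 10 with the combination (median −0.78), and none rose in either. CDKN3, a phosphatase of CDKs, fell by 1.12 ± 0.18 with the combination (adjusted p = 0.000245), CCNF, cyclin F, by 1.0, BORA, the cofactor of AURKA toward PLK1, by 0.88, and PPP2R2A, a regulatory subunit of PP2A, by 0.69. Of 32 other centromere and kinetochore genes, 15 fell and 2 rose with H3B-6527, and 21 fell and 1 rose with the combination (medians −0.55 and −0.77). CENPH, CENPN and CENPO, inner kinetochore proteins, fell by 1.35, 1.18 and 1.04 with the combination, and ZWILCH, of the outer kinetochore, by 0.95. CENPC, the inner kinetochore scaffold, rose by 0.55 with H3B-6527 (adjusted p = 0.00191) and 0.38 with the combination (adjusted p = 0.0162).

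Of 15 other condensin and cohesin genes, 8 fell and 1 rose with H3B-6527, and 9 fell and none rose with the combination (medians −0.29 and −0.46). The condensin subunit SMC2 fell by 0.85 ± 0.20 with the combination (adjusted p = 0.00337), and the cohesin subunit STAG2 and regulators PDS5B and WAPL by 0.60, 0.49 and 0.46. Of 24 other spindle and cytokinesis genes, 11 fell and 2 rose with H3B-6527, and 18 fell and 1 rose with the combination (medians −0.48 and −0.76). CEP55, needed for the final cut between daughter cells, fell by 1.28 ± 0.23 with the combination (adjusted p = 0.000608), the microtubule destabilizers KIF2A and STMN1 by 1.0 and 0.94. HAUS4, a subunit of the augmin complex that branches spindle microtubules, was at 5.19, 5.37 and 4.6 CPM with vehicle, 18.8, 12.5 and 12.4 with H3B-6527 and 15.3, 16.8 and 14.7 with the combination. It rose by 1.53 ± 0.18 (adjusted p = 2.29e-05) and 1.62 ± 0.18 (adjusted p = 1.61e-05), with no overlap between the treated and vehicle tumors. With lenvatinib alone 0 of these 118 genes passed the test in any of the 6 lists.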

How the data were processed

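The authors deposited 1 table of expected counts per gene symbol, estimated by kallisto and not scaled, per the file header and the labels. The submitters' processing notes name STAR, kallisto, GRCh37 and GRCm38; versions, the use of each build and any removal of mouse reads are not given in the sources used here, and 22% of the values were not whole (tolerance 0.01). Each library was run on 4 lanes. The deposited expected counts were rounded. Genes were filtered with filterByExpr on the 4 groups, which left 15836, and all 12 libraries entered 1 quasi-likelihood fit in edgeR 4.0.16 (R 4.3.3; TMM, robust dispersion). Benjamini-Hochberg adjustment covered all 15836 genes of each comparison (threshold 0.05). The fit was tested on simulated data in which all groups had the same spread for a gene. That test therefore cannot speak to the unequal spread between groups seen here. The labels give 3 mice per group and no batches, and each tumor was sampled once as a fragment. The p-values, SEs and intervals of the main fit rest on the spread between tumors within groups, estimated jointly over the 4 groups. They do not measure the spread of the 2 compared groups alone. The members' median SD over mean was 7.77% with vehicle, 9.75% with lenvatinib, 21.2% with the combination and 38.4% with H3B-6527.

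The members and lists were chosen with earlier results of these data known. Members with values in each tumor are a preset set of central genes, the 5 lowest and 5 highest in 3 comparisons, and those that did not pass where most did; of the other lists, up to 4 genes with the smallest p in combination against vehicle are named, and FZR1 and CENPC, like DUSP6, were added after their values were seen. Alternatives were DESeq2 1.42.0, limma 3.58.1 voom, library totals without TMM, no low-count filter, a fit of the compared groups alone, and leaving out each tumor. A floor of 3 counts is 0.0762 to 0.126 CPM, for counting error only, and every member was above it in every tumor. No human reference was used, so sequences and coordinates are not reported.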

Additional observations from a re-analysis of the deposited data

How the results depend on the processing

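In H3B-6527 against vehicle 46 members fell (24.3% of all genes). The number was 30 without the low-count filter (13.2% of 27039 genes) and ran from 29 to 54 when 1 tumor was left out (19.3 to 26.2% of all genes). DESeq2, limma voom, library totals and the 2 groups alone gave 50, 51, 50 and 34 (25.5%, 25.5%, 31.3% and 20.1%). In H3B-6527 against lenvatinib, 38 (20.6%) became 23 without the low-count filter (11.1%), 23 with the 2 groups alone (14.2%), and 20 to 54 when 1 tumor was left out (15.0 to 23.2%), while DESeq2, limma voom and library totals gave 47, 50 and 40 (21.6%, 21.8% and 25.2%). Combination against vehicle gave 47 to 53 throughout, while the share over all genes ran from 13.9% without the low-count filter to 33.7% with library totals. In combination against lenvatinib, 52 became 43 without the low-count filter (2976 of 27039 genes). This number ran from 39 to 54 when 1 tumor was left out (14.5 to 18.5% of all genes). DESeq2, limma voom, library totals and the 2 groups alone gave 54, 53, 53 and 54 (21.5%, 20.7%, 27.5% and 23.2%). The counts of 0 for lenvatinib against vehicle, combination against H3B-6527 and non-additivity stayed at 0 in every alternative run. In these runs at most 0.818% of all genes were called lower (DESeq2, lenvatinib against vehicle). When 1 tumor was left out, the median of combination against H3B-6527 ran from −0.45 to 0.11 and that of non-additivity from −0.37 to 0.16, positive only without H3B-6527 replicate 3. Fewer samples remain in such fits; the cause of the other shifts was not tested. Library totals moved the median of all genes by −0.12, −0.15 and −0.10 in H3B-6527 against vehicle, combination against vehicle and combination against lenvatinib, and no member changed direction in the former pair. The fit of 2 groups alone was not run for non-additivity, which needs all 4. No paired analysis was possible because the labels number no replicates.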
